A study of Mus musculus with 24 samples.

Results

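Gene expression of control C2C12 cells at day 7 of culture was compared with that at day 0. C2C12 is a myoblast line grown from mouse skeletal muscle, and its cells can leave the cell cycle, line up and fuse into multinucleate myotubes. The comparison is of 3 control libraries of day 7 without forskolin with 3 control libraries of day 0. A gene was included when its level reached 1 FPKM (fragments of a gene, corrected for how long its transcripts are and how many fragments were mapped) in at least 3 of these 6 libraries, which left 13232 of 37041 genes in the tables. The study as a whole holds 24 libraries. They come from C2C12 cells, control or NFIA-expressing, at day 0, at day 7 and at day 7 with 10 µM forskolin for 4 h, and from brown adipose tissue of wild-type and NFIA-KO mice. NFIA, a nuclear factor I protein that binds DNA, is tied by the series title to the brown fat gene program, and the control cells give the course of these myoblasts without added NFIA.

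The groups used are control C2C12 cells at day 7, control C2C12 cells at day 0, and, for 1 further comparison, NFIA-expressing C2C12 cells at day 7 and at day 0, with 3 libraries each and no drug treatment. The labels call the source of all of them C2C12 myoblasts and give no genotype. No source used here gives the vector carried by the control cells or the medium used between the days. All libraries are from 1 cell line, and a day 7 culture can hold unfused cells beside myotubes. In such bulk RNA, fewer cells of a type and less RNA per cell cannot be told apart. The labels do not say whether the libraries of a group came from separate cultures, so the p-values measure the spread between these libraries, which may be technical.

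Muscle differentiation is run by the MyoD family of basic helix-loop-helix factors (Myod1, Myf5, Myog and Myf6), which bind E-boxes as dimers with E proteins and act with MEF2 factors. Id proteins sequester the E proteins, and cyclins with their kinases oppose the program in dividing myoblasts. Once Myog and the inhibitor Cdkn1a (p21) come on, cells leave the cycle, the membrane proteins myomaker and myomixer fuse them, and genes of the sarcomere are switched on.

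In the 6 libraries the summed FPKM ranged between 855723 and 1148357. The tables hold no read totals, and so neither depth nor counting error can be given. The most abundant entry in each of them, mmu-mir-703, alone made up 18.3% to 33.5% of the sum. Over the 13232 genes, log2 levels correlated across genes at 0.98 to 0.99 between the day 7 libraries, at 0.96 to 0.99 between the day 0 libraries, and at 0.84 to 0.89 between days. Column headers carry an earlier date for the first library of each group and a later one for the other 2. These dates are taken here as run dates, and whether they are was not checked. The first day 0 library stood farthest from its group. Markers of skeletal muscle were present throughout, with all 8 at a mean of at least 1 FPKM at day 7 and 6 of 8 at day 0, and a summed level of 27100 to 27980 FPKM at day 7, against 239.5 to 280.2 FPKM at day 0. Of 5 endothelial markers none reached a mean of 1 FPKM on either day. Of 8 adipocyte markers 2 did on each day, Fabp4 and Pparg, with a summed level of 3.82 to 8.90 FPKM at day 7, against 5.30 to 9.80 FPKM at day 0, while Adipoq and Lep were at or near 0. Of 6 brown adipocyte markers only Dio2 reached 1 FPKM, at day 7, and the sum was 12.65 to 14.37 FPKM at day 7, against 0.93 to 1.01 FPKM at day 0, with Ucp1 and Prdm16 at 0 at day 7. Cardiac markers summed to 13.67 to 16.01 FPKM at day 7, against 6.64 to 7.84 FPKM at day 0, and were chiefly Myh6 and Gata4, with Tbx5, Hand2 and Tbx20 at 0. Nerve and glia markers summed to 15.89 to 19.34 FPKM at day 7, against 15.61 to 27.73 FPKM at day 0, nearly all of it Tubb3. The part of such cells in the results was not tested. Of 7 smooth muscle and myofibroblast markers 5 reached a mean of 1 FPKM on each day. The sum of all 7 was 1180 to 1305 FPKM at day 7, against 603.3 to 738.1 FPKM at day 0. It was chiefly Acta2 and Tagln, which early muscle cells also express, while Myh11 stayed at or below 0.03 FPKM in all 6. The part of smooth muscle cells or myofibroblasts in the results was not tested either. Nfia itself had 2.23, 0.81 and 0.94 FPKM at day 7, against 1.17, 0.26 and 0.55 FPKM at day 0, below the level filter.

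At an adjusted p under 0.05 (limma on log2(FPKM + 1), Benjamini-Hochberg), 6769 of the 13232 genes differed between day 7 and day 0, or 51.2%. Of all genes tested, 25.7% were called higher and 25.4% lower, and the median log2 difference was 0.02. The library values of the days did not overlap for 54.9% of genes. Called genes are thus common, and the counts given for gene lists are to be read against these shares. In any list, a member near 0 FPKM on 1 day passes the level filter through the other day alone, so list counts carry no independent weight. With a minimum of 2-fold on the log2(FPKM + 1) scale 1282 genes were higher and 514 lower. With the later run alone, 4404 were higher and 3915 lower.

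The regulators that drive the program rose unequally. Myog, the MyoD family member that acts at the onset of differentiation (chr1:136186581-136189124 in mm9), had 453, 622 and 621 FPKM at day 7, against 4.12, 5.15 and 6.66 FPKM at day 0, a log2 difference of 6.49 ± 0.24 (SE, adjusted p = 6.8e-12). All 3 day 7 libraries lay far above all 3 day 0 libraries. Myod1, which marks committed myoblasts, had 29.3, 35.9 and 34.8 FPKM at day 7, against 12.8, 17.4 and 17.9 FPKM at day 0, and Myf5, the other early member, had 25.6, 25.6 and 26.9 FPKM at day 7, against 22.5, 18.5 and 18.7 FPKM at day 0. Their log2 differences were 1.02 and 0.38, with adjusted p of 9.7e-04 and 0.0017, so both early factors rose, by far less than Myog. Myf6, typical of maturing fibres, had 16.2, 20.4 and 21.7 FPKM at day 7, against 0.19, 0.44 and 0.42 FPKM at day 0 and a log2 difference of 3.92 ± 0.15 (adjusted p = 1.1e-11). Mef2c, the MEF2 factor of differentiating muscle, had 73.6, 63.1 and 62.8 FPKM at day 7, against 0.27, 0.16 and 0.13 FPKM at day 0, with a log2 difference of 5.83 ± 0.14 (adjusted p = 4.9e-14), while its relative Mef2a rose by 1.59 to a mean of 64.5 FPKM at day 7, against 21.0 FPKM at day 0. Tead4, a factor that binds muscle gene promoters, had 25.2, 25.9 and 23.3 FPKM at day 7, against 5.28, 5.45 and 5.69 FPKM at day 0 and rose (adjusted p = 4.8e-10). Of 21 tested members of the myogenic transcription factor list, 10 rose, 3 fell and 8 did not pass, with a median log2 difference of -0.11. Eya1, a cofactor of homeodomain factors of muscle precursors, was among those that fell and was named after its values were seen. It had 4.13, 4.22 and 3.89 FPKM at day 7, against 12.6, 10.4 and 10.6 FPKM at day 0. Pax7, the factor of muscle stem cells, lay between 0.59 and 0.85 FPKM at day 7 and between 0.79 and 1.02 FPKM at day 0 and was not tested.

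**Figure D1:**
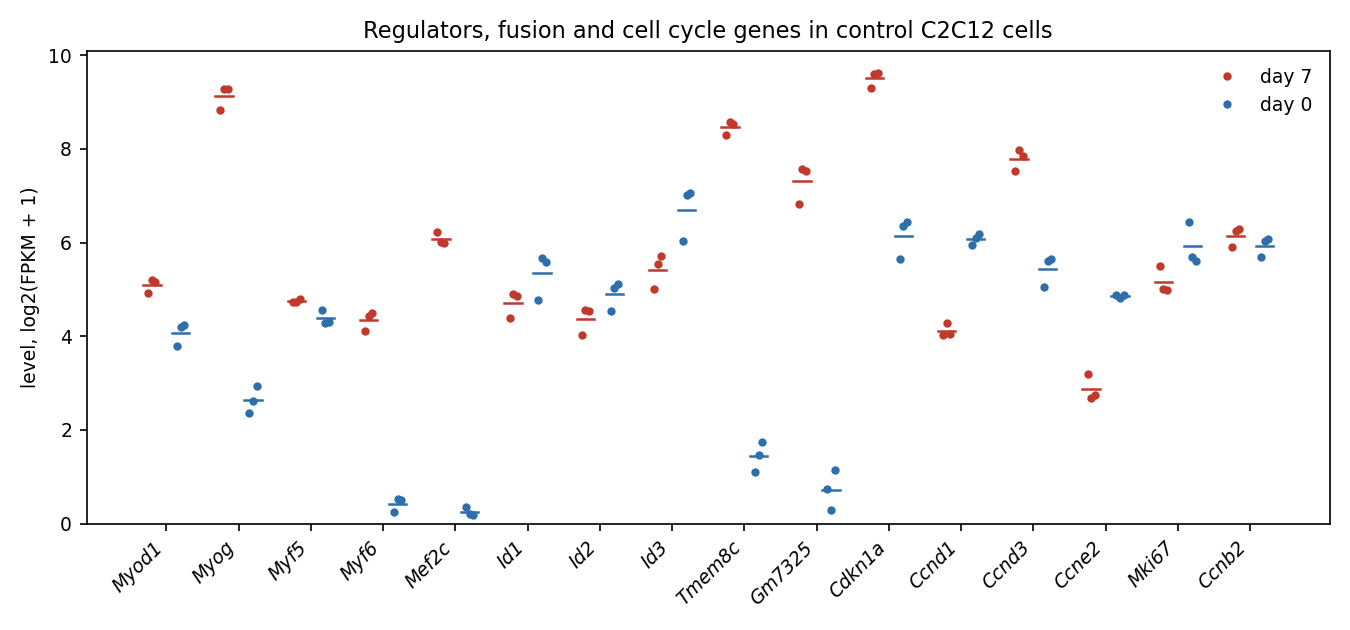
Levels, as log2(FPKM + 1), of regulators, fusion genes and cell cycle genes in each control library, with day 7 left of day 0 for each gene and a line at the mean of 3 libraries. Myog, Myf6, Mef2c, Tmem8c and Gm7325 are far apart between the days, while the points of Id1, Id2 and Ccnb2 overlap.

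Inhibitors of differentiation did not fall as a group. Of 20 tested members 11 rose, 7 fell and 2 did not pass (median 0.51). The chromatin proteins Hmga2 and Hmga1, which are high in proliferating progenitors, fell, and Hmga2 had 4.53, 5.03 and 4.76 FPKM at day 7, against 37.9, 32.1 and 32.5 FPKM at day 0, a log2 difference of -2.60 ± 0.11 (adjusted p = 5.0e-11). Id3 had 31.0, 45.6 and 51.5 FPKM at day 7, against 64.2, 128 and 131 FPKM at day 0 and fell by 1.28 on the log2 scale (adjusted p = 0.0051). Id1 had 19.9, 29.0 and 28.1 FPKM at day 7, against 26.5, 49.6 and 47.2 FPKM at day 0, and its groups overlapped (adjusted p = 0.13). Id2 had 15.4, 22.6 and 22.2 FPKM at day 7, against 22.4, 31.7 and 33.6 FPKM at day 0 (adjusted p = 0.067), and its groups overlapped as well. Both missed the threshold here, and both passed it with the run date as a term, at the same differences of -0.63 and -0.52. The members that rose most do not all act as the list's name says. Heyl, a repressor induced by Notch, had 31.7, 22.7 and 28.7 FPKM at day 7, against 2.91, 4.67 and 5.05 FPKM at day 0 (log2 difference 2.47 ± 0.24, adjusted p = 4.6e-07), and Hes6, which antagonises other Hes proteins and promotes myogenesis, had 69.0, 102 and 107 FPKM at day 7, against 15.1, 31.6 and 31.5 FPKM at day 0 (adjusted p = 3.5e-04). In the Notch list 5 of 16 tested genes rose, 2 fell and 9 did not pass, and 9 rose with the run date as a term. Hey1, another target, rose by 1.40 and the ligand gene Dll1 by 1.21, while Lfng, a glycosyltransferase that modifies Notch receptors, fell by 1.38.

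Genes of the fusion machinery contained some of the largest shifts. Tmem8c, the older symbol of myomaker (Mymk, chr2:26917156-26927699 in mm9), had 314, 381 and 371 FPKM at day 7, against 1.15, 1.76 and 2.36 FPKM at day 0, a log2 difference of 7.03 ± 0.19 (adjusted p = 2.4e-13). Gm7325, the older name of myomixer (Mymx, chr17:45737916-45739051), had 113, 189.7 and 184 FPKM at day 7, against 0.66, 0.23 and 1.2 FPKM at day 0, a log2 difference of 6.59 ± 0.36 (adjusted p = 6.6e-10). Neither overlapped between days. Cav3, the caveolin of muscle membranes, had 76.3, 91.8 and 101 FPKM at day 7, against 0, 0.05 and 0.13 FPKM at day 0, with 1 day 0 library listed at 0. Bin1, which shapes T-tubule membranes, was already well expressed and had 377, 474 and 436 FPKM at day 7, against 71.8, 93.2 and 97.4 FPKM at day 0 (log2 difference 2.29 ± 0.17). Of 32 tested fusion genes 17 rose, 9 fell and 6 did not pass, with a median of only 0.29, so the large differences sat in a few members. Members near 0 FPKM at day 0, such as Cav3, passed the level filter through day 7 alone. Markers of myoblasts and satellite cells did not fall as a group either: 10 of 18 rose, 3 fell and 5 did not pass. Heyl and Myf5, given above, are counted in this list too. The adhesion molecule Ncam1, high in newly formed myotubes, rose by 2.11, and the laminin receptor subunit Itga7 by 2.09.

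Sarcomere genes were higher at day 7 almost without exception among those tested. All 24 tested genes of the thick filament and its assembly and all 23 of the thin filament rose, with median log2 differences of 5.07 and 5.64, against 0.02 over all genes. The summed level of both lists was 43260, 44250 and 46610 FPKM in the day 7 libraries, against 916, 1006 and 1045 FPKM in the day 0 libraries. Because the filter admits genes that are high in 3 libraries, members absent at day 0 passed it through day 7 alone, and these counts carry no independent weight. The most abundant mRNA of the lists was Mylpf, the fast regulatory light chain (chr7:134355122-134357812), with 21626, 21288 and 22207 FPKM at day 7, against 22.8, 26.7 and 26.3 FPKM at day 0. Myl4, the light chain of embryonic muscle and of atria, had 1862, 2414 and 2914 FPKM at day 7, against 1.3, 1.53 and 2.39 FPKM at day 0 and the largest log2 difference of all genes tested, 9.77 ± 0.27 (adjusted p = 2.2e-13). Skeletal actin, Acta1, had 2424, 2707 and 2603 FPKM at day 7, against 3.53, 4.7 and 5.3 FPKM at day 0, and cardiac actin, Actc1, which is also the early actin of skeletal muscle, had 777, 916 and 993 FPKM at day 7, against 2.03, 2.5 and 2.63 FPKM at day 0. Both differed by more than 8 log2 units, at 8.88 and 8.04. The tables list Acta1 with a locus far wider than the gene, so its read assignment is uncertain. The fast troponin genes Tnnc2 and Tnni2 and the slow troponin gene Tnni1 rose together, by 9.30, 8.40 and 9.06.

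**Figure D2:**
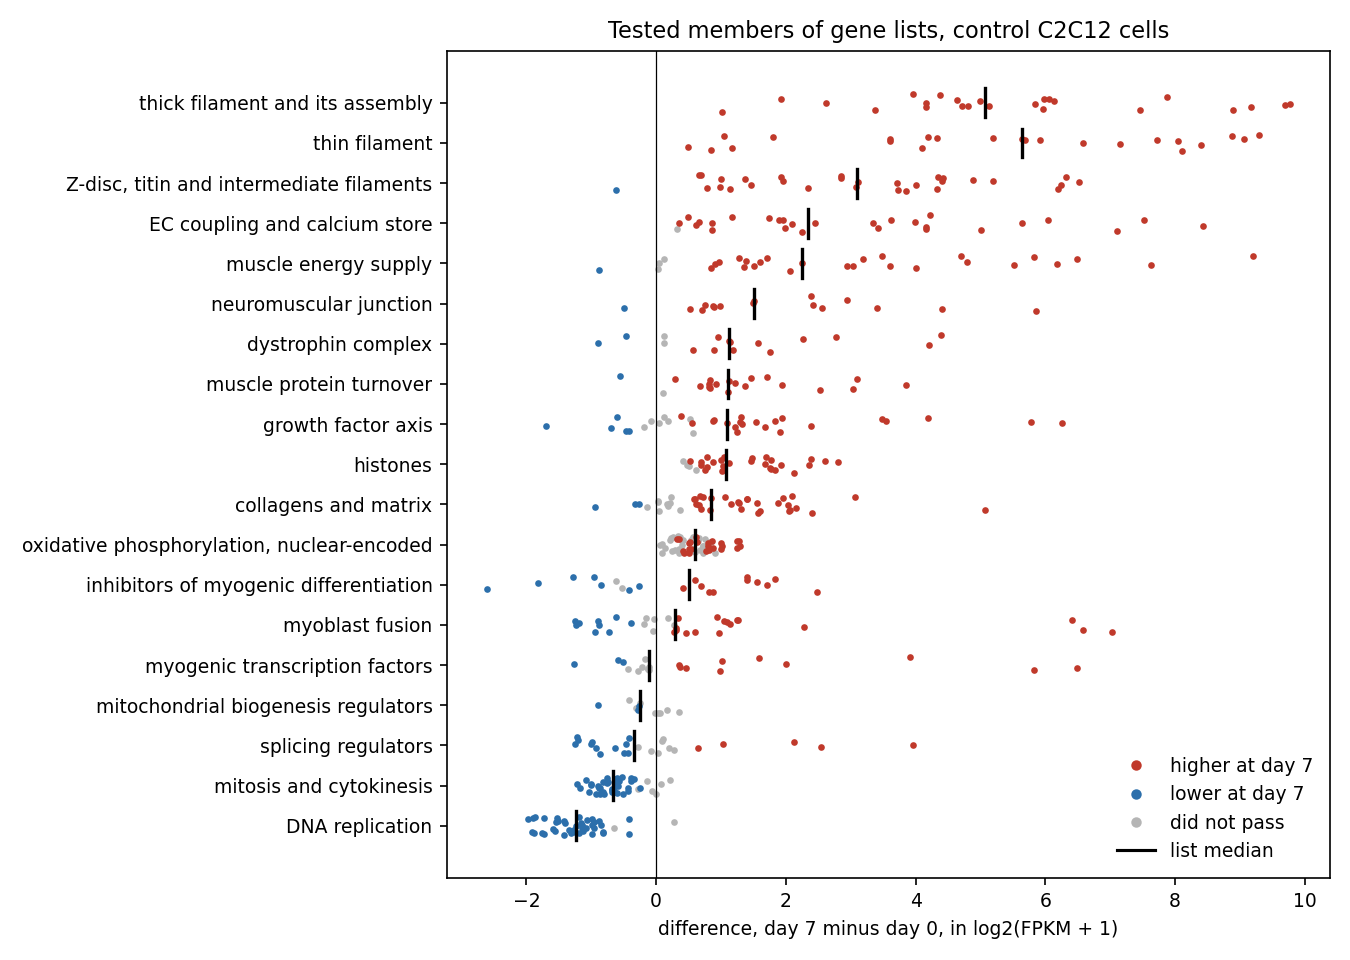
Log2 difference of every tested member of 19 gene lists, day 7 minus day 0, with members called higher, called lower and not passed in separate colours and a bar at the list's median. Sarcomere lists lie almost wholly to the right of 0, DNA replication and mitosis lists almost wholly to the left, and the replication median (-1.24) lies beyond the mitosis median (-0.67).

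The myosin heavy chains gave an order of isoforms. At day 7 the embryonic Myh3 was highest, with 406, 308 and 350.4 FPKM at day 7, against 0.37, 0.48 and 0.68 FPKM at day 0. The fast IIx gene Myh1 followed, with 247, 179 and 203 FPKM at day 7, against 0.22, 0.17 and 0.15 FPKM at day 0, and the lowest Myh3 library lay above the highest Myh1 library. The fast IIb gene Myh4 (80.9, 63.9 and 65.7 FPKM at day 7), the perinatal Myh8 (67.1, 56.9 and 65.2 FPKM) and the slow Myh7 (55.9, 56.2 and 62.3 FPKM) came next, and neighbours among these overlapped in their library values. The fast IIa gene Myh2 was lower, at 19.4, 15.0 and 17.5 FPKM, and Myh6, Myh7b and Myh13 were below 10 FPKM in every day 7 library. At day 0 no skeletal heavy chain exceeded 0.68 FPKM. As a share of the summed heavy chain FPKM, Myh3 made up 45.5%, 44.3% and 44.8% of the 3 day 7 libraries and Myh1 27.7%, 25.6% and 25.9%. Myh1 and Myh2 are given the same locus in the tables, and these genes are close copies in a cluster on chromosome 11, so the split of reads between neighbours is uncertain.

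**Figure D3:**
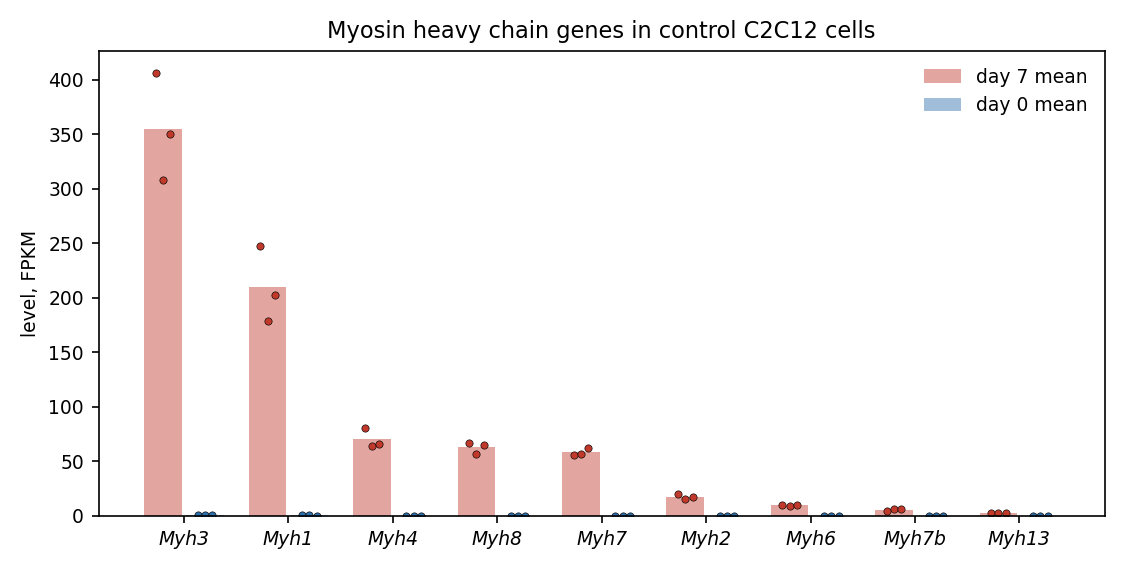
FPKM of 9 myosin heavy chain genes in control cells, with bars at the mean of 3 libraries, points for single libraries, and day 7 left of day 0. Myh3 is highest and Myh1 next at day 7, and all day 0 bars lie close to 0.

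Genes of the structures around the filaments rose as well. Here too members near 0 FPKM at day 0 passed the level filter through day 7 alone, so these counts carry no independent weight. The same holds for the junction, energy supply and protein turnover lists below. In the Z-disc, titin and intermediate filament list 29 of 30 tested members rose (median 3.10), and the exception, Fhl3, a LIM protein named here after its values were seen, had 16.3, 20.1 and 17.9 FPKM at day 7, against 21.2, 32.7 and 32.0 FPKM at day 0. Tcap, the cap of titin's Z-disc end, had 73.7, 110.05 and 121 FPKM at day 7, against 0.04, 0.19 and 0.05 FPKM at day 0 and a log2 difference of 6.52 ± 0.31. Actn2, the muscle alpha-actinin, had 79.7, 79.8 and 85.8 FPKM at day 7, against 0.05, 0.04 and 0.01 FPKM at day 0. Titin itself, Ttn, rose by 3.73, with 28.1, 20.4 and 18.6 FPKM at day 7, against 1.11, 0.67 and 0.49 FPKM at day 0. Desmin, Des, which myoblasts already express, had 825, 782 and 807 FPKM at day 7, against 192, 207 and 220.4 FPKM at day 0. For coupling of excitation to contraction, 27 of 28 tested genes rose (median 2.35). The remaining one, Popdc3, which was named after its values were seen, did not pass (0.33, adjusted p = 0.07), but it passed as higher with the run date as a term and with median-of-ratios scaling. Atp2a1, the calcium pump of fast fibres, had 692, 652 and 635 FPKM at day 7, against 0.9, 1.05 and 0.78 FPKM at day 0 (log2 difference 8.44 ± 0.18), and the calcium buffers Casq2 and Casq1 rose by 7.53 and 7.10. The pump regulators Sln and Pln, by contrast, did not exceed 0.33 FPKM in any of the 6 libraries. In the dystrophin complex 12 of 16 tested members rose, 2 fell and 2 did not pass (median 1.13). Sgca, a sarcoglycan, rose by 4.21. Dystrophin, Dmd, did not meet the level filter, with 1.72, 0.86 and 0.93 FPKM at day 7, against 0.01, 0.02 and 0 FPKM at day 0.

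Genes of the postsynaptic side of the neuromuscular junction rose in these cultures, for which the labels name no nerve cells. Of 16 tested 15 rose and 1 fell (median 1.502). Chrna1, the alpha subunit of the acetylcholine receptor, had 192, 222 and 213 FPKM at day 7, against 35.1, 39.6 and 40.3 FPKM at day 0, a log2 difference of 2.42 ± 0.13. The fetal gamma subunit, Chrng, had 185, 226 and 221 FPKM at day 7, against 1.79, 3.43 and 2.87 FPKM at day 0 (log2 difference 5.86 ± 0.25). The epsilon subunit, Chrne, which replaces gamma at mature junctions, had 17.4, 22.4 and 21.8 FPKM at day 7, against 0, 0.04 and 0 FPKM at day 0, with 2 day 0 libraries listed at 0. Both subunits thus rose, and at day 7 the gamma level was above the epsilon level in each library. Erbb3, a receptor for neuregulin, rose by 3.41. The ligand gene Nrg1, named after its values were seen, fell, with 11.3, 10.8 and 9.11 FPKM at day 7, against 16.5, 14.3 and 14.2 FPKM at day 0 (adjusted p = 0.002).

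Energy supply genes of muscle rose in 25 of 29 cases (median 2.25). Mb, the oxygen store myoglobin, had 773, 952 and 1061 FPKM at day 7, against 0.38, 0.85 and 0.48 FPKM at day 0 and a log2 difference of 9.21 ± 0.21. Ckm, muscle creatine kinase, had 218, 255 and 273 FPKM at day 7, against 0.31, 0.15 and 0.3 FPKM at day 0 (7.63 ± 0.19), and Pgam2, the muscle phosphoglycerate mutase, rose by 6.18. The glycolytic Aldoa and Eno3 started high and rose by 2.06 and 1.51. Pdk4, which restrains pyruvate use, was the 1 member that fell, with 15.0, 14.4 and 15.4 FPKM at day 7, against 31.4, 27.2 and 26.4 FPKM at day 0, and it too was named after its values were seen. Nuclear-encoded subunits of oxidative phosphorylation rose modestly: 26 of 57 passed, all of them higher, with a median of 0.60. The first library, which has the earlier run date, was the lowest of its group for 56 of the 57 genes at day 7 and for 52 at day 0, as in Ndufa1 with 113, 179 and 177 FPKM at day 7, against 27.4, 87.0 and 96.7 FPKM at day 0. The count moved with the libraries used: it was 49 of 57 with the later run alone and 12 without the first day 0 library. Atp5b, the most abundant member, had 1278, 1519.6 and 1604 FPKM at day 7, against 1328, 1408 and 1459 FPKM at day 0, and its groups overlapped (adjusted p = 0.83). Of the ribosomal protein genes 14 of 73 were called higher, a smaller share than that of all genes, and 0 lower (median 0.40). The number called higher was 50 with the later run alone, 5 with the compared groups alone and 3 without the first day 0 library. After quantile normalization 6 were higher and 4 lower. Of 16 regulators of mitochondrial biogenesis 5 did not meet the level filter. Of the 11 tested, 0 rose by this test and 3 fell. Without the level filter 3 were called higher, and with the run date as a term 1 rose and 5 fell. The 3 that fell were Pprc1, a relative of PGC-1alpha, which fell by 0.90, the nuclear receptor gene Ppard, which fell by 0.28, and Nrf1, a factor for respiratory chain genes, which fell by 0.27. Ppard and Nrf1 no longer passed in a fit of the compared groups alone. Ppargc1a (PGC-1alpha) stayed below 1 FPKM in all 6 libraries.

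Many enzymes and structural proteins exist as a widely expressed form and a muscle form, and 36 such pairs had been listed, of which 35 are in the tables. The muscle gene rose in 28 pairs and fell in 0, while 4 did not pass and 3 were not tested. The broad gene fell in 16 and rose in 7. In 14 pairs the muscle gene rose and the broad gene fell. Of all genes tested, 25.7% were called higher and 25.4% lower. Muscle genes near 0 FPKM at day 0 passed the level filter through day 7 alone, so these counts carry no independent weight. The log2 ratio of muscle over broad gene was higher at day 7 without overlap between libraries in 31 pairs. For skeletal over beta-actin, with the same doubt on Acta1, the ratio was 1.71, 2.01 and 1.83 in the day 7 libraries, against -8.19, -8.05 and -7.94 in the day 0 libraries. Actb itself, the beta-actin of nonmuscle cells, had 742, 674 and 731 FPKM at day 7, against 1324, 1513 and 1546 FPKM at day 0, a log2 difference of -1.03 ± 0.10 (adjusted p = 5.1e-07). The pair Unc45b and Unc45a, chaperones of myosin, moved in opposite directions, by 5.14 and -0.83. The pair Atp2a1 and Atp2a2 did not, since Atp2a2, the pump of most cells and slow fibres, also rose, by 0.66. The muscle gene exceeded its broad partner in every library for 13 pairs at day 7, against 2 pairs at day 0. Jph1 over Jph3 was counted on both days and Ckmt2 over Ckmt1 at day 7, and Jph3 and Ckmt1 did not meet the level filter. Eef1a2, the adult muscle form of a translation factor, stayed at 0.48, 0.51 and 0.11 FPKM at day 7 and was not tested.

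**Figure D4:**
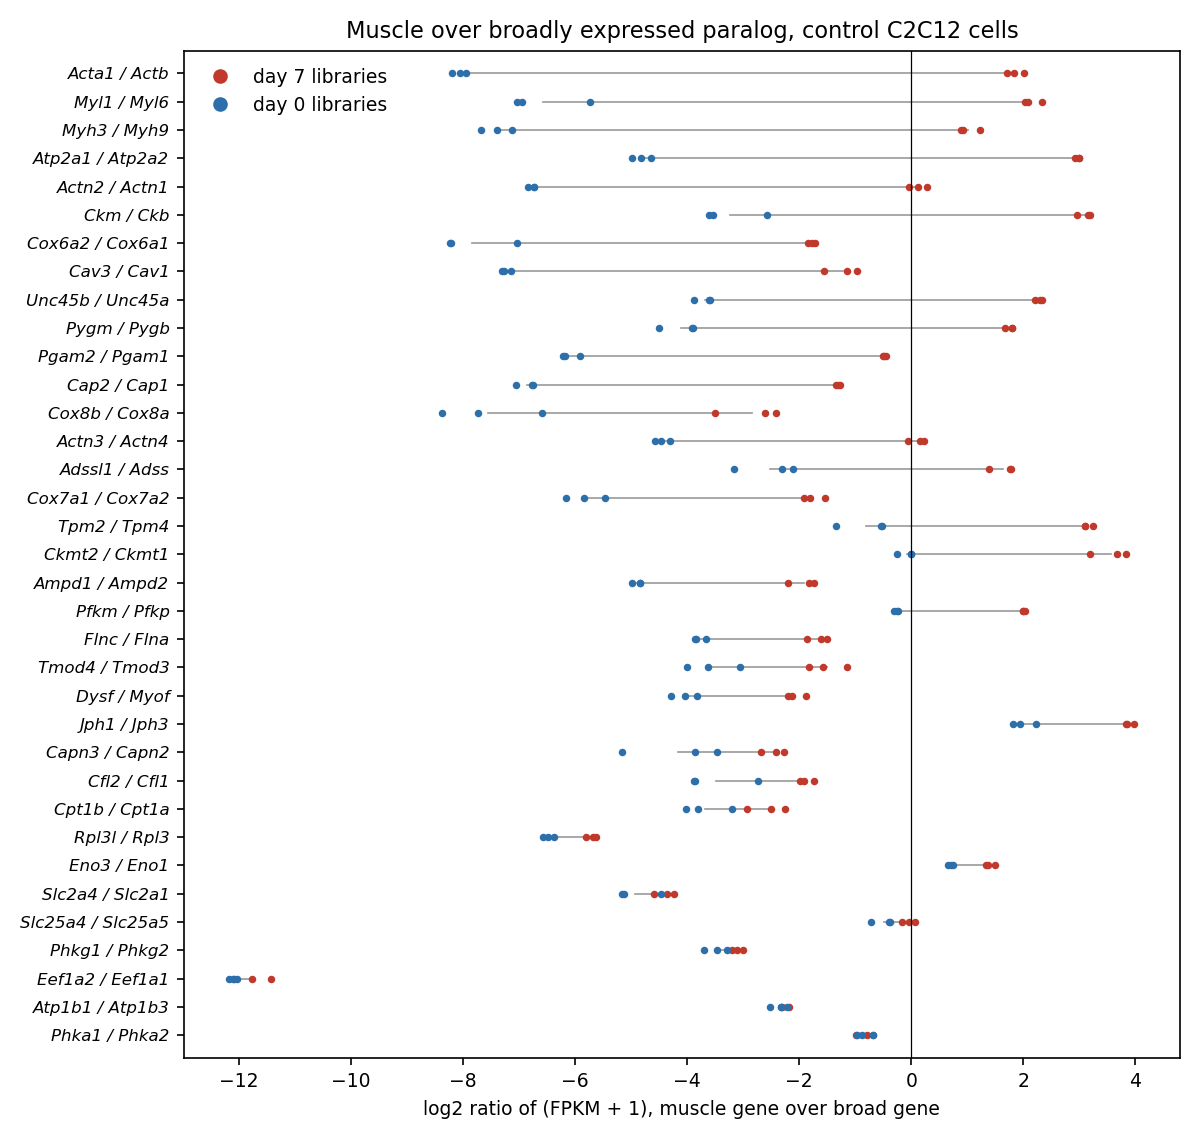
Log2 ratio of (FPKM + 1) of the muscle gene over its broadly expressed paralog for 35 pairs, with a point for each control library and day 7 and day 0 in separate colours. Ratios moved to the right at day 7 in most pairs, by 9.91 for Acta1 over Actb, and little for Eef1a2 over Eef1a1.

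Genes of the cell cycle were lower at day 7, but not to the same degree at each step. Of 45 DNA replication genes, all tested, 43 fell and 2 did not pass, with a median log2 difference of -1.24. Of 48 mitosis and cytokinesis genes 42 fell and 6 did not pass, with a median of -0.67. Ccne2, a cyclin of entry into S phase, had 8.18, 5.44 and 5.67 FPKM at day 7, against 28.6, 27.1 and 28.3 FPKM at day 0, and Ccne1, its paralog, had 4.31, 5.17 and 5.95 FPKM at day 7, against 17.9, 24.4 and 23.6 FPKM at day 0, with log2 differences of -1.98 ± 0.13 and -1.90 ± 0.14. Orc1, of the origin recognition complex, fell by 1.91, and Pcna, the sliding clamp, fell by 1.25 (adjusted p = 7.3e-05). Mcm3, a subunit of the replicative helicase named after its values were seen, had 15.6, 15.0 and 15.6 FPKM at day 7, against 53.4, 54.1 and 57.0 FPKM at day 0.

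Mitotic genes fell less. Mki67, the gene of the proliferation marker Ki-67, had 44.1, 31.0 and 30.6 FPKM at day 7, against 85.9, 51.0 and 47.8 FPKM at day 0, and fell by 0.76 (adjusted p = 0.016). It no longer passed without the first day 0 library (-0.50) or without the second (-0.68) or the third day 7 library (-0.67). Top2a, which untangles chromosomes, had 109.8, 94.3 and 98.7 FPKM at day 7, against 196, 145 and 151 FPKM at day 0, and the kinase gene Cdk1 had 139.6, 199 and 193 FPKM at day 7, against 228, 294 and 327 FPKM at day 0. Cdk1 no longer passed without the first day 7 library (-0.51) or without the second (-0.64) or the third day 0 library (-0.56). Ccnb1, a mitotic cyclin, had 25.9, 28.5 and 24.9 FPKM at day 7, against 53.8, 46.4 and 46.5 FPKM at day 0 and fell by 0.86 (adjusted p = 1.7e-06). Ccnb2, the other B cyclin, had 58.6, 74.9 and 77.6 FPKM at day 7, against 50.3, 64.8 and 66.2 FPKM at day 0, and its groups overlapped (log2 difference 0.22 ± 0.16, adjusted p = 0.27). It passed as higher with the run date as a term. The others that did not pass were Cenpa, Cenpf, Cdca3, Pttg1 and Cks2, named after their values were seen. Summed over the list, mitotic mRNA was at 1858 to 2078 FPKM at day 7, against 2944 to 3091 FPKM at day 0. For DNA replication the sums were 650.5 to 736.9 FPKM at day 7, against 1591 to 1763 FPKM at day 0.

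Brakes on the cycle and D cyclins changed by member. Cdkn1a (p21) had 629.7, 773 and 787 FPKM at day 7, against 49.0, 80.9 and 85.2 FPKM at day 0, a log2 difference of 3.36 ± 0.21 (adjusted p = 3.8e-09). Ccnd3, the D cyclin that is kept in differentiated muscle, had 183, 249 and 230.5 FPKM at day 7, against 32.3, 48.0 and 49.1 FPKM at day 0, and rose by 2.34, while Ccnd1, the D cyclin of dividing myoblasts, had 15.3, 18.4 and 15.6 FPKM at day 7, against 61.1, 67.4 and 71.3 FPKM at day 0 and fell by 1.96 (adjusted p = 5.8e-07 and 1.0e-09). None of these groups overlapped. Gadd45a, a growth arrest gene, rose by 2.79, Cdkn1c by 0.80, at levels that stayed at or below 3.16 FPKM, and the kinase gene Cdk4 fell by 0.87. Cdkn2a was listed at 0 in all 6 libraries. Over the list of 23 tested exit genes 10 rose, 7 fell and 6 did not pass.

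Most tested genes with a Hist symbol were higher in these libraries, while the replication genes were lower. The mRNAs of replication-dependent histone genes normally end in a stem-loop without a poly(A) tail and peak in S phase. The labels describe these libraries as polyA RNA, so histone mRNA without a tail may be missed. Of 30 tested genes with a Hist symbol 26 rose, 0 fell by this test and 4 did not pass, with a median of 1.08, and 21 rose after quantile normalization. Hist1h1c had 79.0, 101 and 95.5 FPKM at day 7, against 11.2, 15.7 and 16.2 FPKM at day 0, a log2 difference of 2.61 ± 0.16 (adjusted p = 3.2e-09). Hist1h2bc had 49.3, 74.6 and 79.8 FPKM at day 7, against 8.97, 12.6 and 15.9 FPKM at day 0, and Hist1h2bl had 23.2, 23.2 and 26.9 FPKM at day 7, against 0.85, 4.36 and 3.81 FPKM at day 0. Another 40 histone genes did not reach the level filter. Histone genes are close copies of each other, so the assignment of reads within the family is uncertain.

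The lists were not chosen by promoter letters. RefSeq promoters (GRCm38.p6, 250 bases before to 50 after the start, the start listed first where a gene has several) were searched on both strands. In the sarcomere and excitation-contraction coupling lists 89 of 117 genes had one. Of these, 84.3% held an E-box (CANNTG) and 37.1% the form CAGCTG, against 72.1% and 16.1% of all 27025 promoters. MEF2 sites were in 16 of the 89, against 3.26% of all, and SRF CArG boxes in 8.99%, against 1.57%. Of 17 promoters of the myogenic transcription factor list 52.9% held an E-box and 5.88% the CAGCTG form, both below the shares of all promoters. In the mitosis list 28 of 40 promoters held the CHR (TTTGAA), an element bound by the DREAM and MuvB complexes, against 18.1% of all, and 30 of 40 held the NF-Y box CCAAT, against 37.9% of all. CCAAT was also in 22 of 37 replication promoters, or 59.5%. The E2F sequences TTTCCCGC or TTTGGCGC were in 35.1% of 37 replication promoters, in 0 of 40 mitosis promoters and in 1.63% of all, and the CHR was in 18.9% of the replication promoters. A match is a description of letters and not a bound site. E-boxes include the CAGCTG form, and no other motifs searched overlap in their letters in the promoters printed here.

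The promoters of a regulator, a filament gene and a receptor gene that rose are shown with E-boxes and the SRF CArG box in capitals. Myog lies at chr1:134289754-134290053 on the plus strand, Acta1 at chr8:123894726-123895025 on the minus strand and Chrng at chr1:87205561-87205860 on the plus strand, each printed 5′ to 3′ along the gene.
Myog: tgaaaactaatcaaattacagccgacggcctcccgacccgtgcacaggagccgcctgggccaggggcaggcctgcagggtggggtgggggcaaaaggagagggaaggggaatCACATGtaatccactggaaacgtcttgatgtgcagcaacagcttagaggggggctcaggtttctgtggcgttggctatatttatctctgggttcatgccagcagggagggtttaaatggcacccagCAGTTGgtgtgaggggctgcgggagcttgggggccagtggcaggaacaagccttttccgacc
Acta1: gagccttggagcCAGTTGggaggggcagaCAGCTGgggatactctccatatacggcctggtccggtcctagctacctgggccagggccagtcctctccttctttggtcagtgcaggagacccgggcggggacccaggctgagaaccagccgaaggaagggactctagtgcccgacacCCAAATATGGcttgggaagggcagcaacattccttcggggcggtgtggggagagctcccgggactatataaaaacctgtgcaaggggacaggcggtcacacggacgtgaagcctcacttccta
Chrng: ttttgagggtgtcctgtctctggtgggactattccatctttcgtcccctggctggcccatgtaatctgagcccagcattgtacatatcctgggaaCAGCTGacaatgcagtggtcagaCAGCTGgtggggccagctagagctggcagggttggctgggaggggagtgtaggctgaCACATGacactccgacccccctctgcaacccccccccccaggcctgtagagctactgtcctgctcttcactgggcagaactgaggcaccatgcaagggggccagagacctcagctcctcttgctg
The Myog E-boxes start at -138 and -12, counted from the start site. Acta1 has E-boxes at -238 and -221 and a CArG box at -73. Chrng has E-boxes at -155, -132 and -75, and the first 2 are CAGCTG.

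A replication gene and a pair of mitotic genes are shown in the same way, with CCAAT on either strand, CHR and E2F letters in capitals. Of these, Mcm3 was picked from its list for its E2F letters, and it lies at chr1:20820263-20820562 on the minus strand, Cdk1 at chr10:69352863-69353162 on the minus strand and Ccnb2 at chr9:70421505-70421804 on the minus strand.
Mcm3: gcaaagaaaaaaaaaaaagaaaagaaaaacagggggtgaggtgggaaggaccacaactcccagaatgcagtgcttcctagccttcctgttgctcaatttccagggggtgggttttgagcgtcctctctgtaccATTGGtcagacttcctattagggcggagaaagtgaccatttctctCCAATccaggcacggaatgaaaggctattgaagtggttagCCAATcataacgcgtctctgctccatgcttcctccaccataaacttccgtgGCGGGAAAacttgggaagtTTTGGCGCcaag
Cdk1: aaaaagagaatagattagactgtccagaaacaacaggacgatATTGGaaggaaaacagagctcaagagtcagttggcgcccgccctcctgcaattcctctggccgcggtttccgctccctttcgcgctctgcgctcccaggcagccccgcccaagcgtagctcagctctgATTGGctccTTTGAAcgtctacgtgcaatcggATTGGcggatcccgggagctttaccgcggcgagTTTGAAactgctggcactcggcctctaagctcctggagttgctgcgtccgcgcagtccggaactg
Ccnb2: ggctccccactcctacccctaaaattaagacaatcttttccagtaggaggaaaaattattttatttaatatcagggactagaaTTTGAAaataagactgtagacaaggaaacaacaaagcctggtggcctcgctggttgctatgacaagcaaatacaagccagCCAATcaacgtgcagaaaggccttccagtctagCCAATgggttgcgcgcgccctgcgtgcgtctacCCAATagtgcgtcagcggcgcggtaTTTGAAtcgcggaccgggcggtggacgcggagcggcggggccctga
In Mcm3 the E2F letters start at 20 and 39 after the start site. In Cdk1 CHR letters start at -71 and -15, and in Ccnb2 at -167 and at 5 after the start, while CCAAT letters recur in all of them. Ccnb2, which did not pass the test, and Cdk1, which fell, thus hold the same 2 kinds of letters.

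Matrix genes rose in the control cells. Of 41 tested, 29 rose, 3 fell and 9 did not pass (median 0.84). Col1a1, a chain of the main fibrillar collagen, had 649, 540.3 and 556 FPKM at day 7, against 92.5, 119.9 and 115 FPKM at day 0, a log2 difference of 2.41 ± 0.15 (adjusted p = 2.8e-09). Postn, the matricellular protein periostin, had 419, 404 and 426 FPKM at day 7, against 63.8, 41.6 and 43.6 FPKM at day 0, and Dcn, the proteoglycan decorin, had 65.3, 79.7 and 78.7 FPKM at day 7, against 1.56, 0.98 and 1.2 FPKM at day 0, with log2 differences of 3.07 ± 0.16 and 5.07 ± 0.11. Col3a1 rose by 2.09, and Sparc, a collagen-binding protein already abundant at day 0, by 1.28. Elastin, Eln, stayed at or below 0.05 FPKM.

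Growth factors of muscle and imprinted genes were among those that rose. Igf2, an autocrine factor of differentiating myoblasts (chr7:149836673-149856261), had 192, 143 and 150.5 FPKM at day 7, against 0.85, 1.06 and 1.42 FPKM at day 0, a log2 difference of 6.27 ± 0.14 (adjusted p = 2.5e-14). H19, the noncoding RNA gene next to it (chr7:149761434-149764048), which is expressed from the maternal copy while Igf2 is expressed from the paternal copy, had 3358, 3219 and 3205 FPKM at day 7, against 247, 329 and 328 FPKM at day 0 (3.44 ± 0.19). Igf1 had 17.5, 19.2 and 20.7 FPKM at day 7, against 1.03, 0.78 and 0.4 FPKM at day 0. Fgf21 and Fndc5, genes of secreted or shed muscle factors, rose by 5.79 and 4.19, with Fgf21 at 53.3, 78.2 and 67.8 FPKM at day 7, against 0.2, 0.25 and 0.17 FPKM at day 0. In the growth factor list 21 of 33 rose, 5 fell and 7 did not pass, and in the imprinted list 7 of 13 rose, 2 fell and 4 did not pass. Peg10, a paternally expressed gene, fell, with 4.11, 3.14 and 2.84 FPKM at day 7, against 27.9, 20.3 and 20.3 FPKM at day 0. Fgfr4, named after its values were seen, had 3.25, 5.38 and 144 FPKM at day 7, against 1.42, 2.02 and 2.8 FPKM at day 0, so that 1 day 7 library sets its log2 difference of 2.38, which was 0.78 without it.

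RNA-binding proteins that set splicing changed in opposite directions. Rbm24, which promotes muscle exons, had 21.1, 22.5 and 20.1 FPKM at day 7, against 0.4, 0.46 and 0.41 FPKM at day 0, a log2 difference of 3.96 ± 0.15 (adjusted p = 9.8e-12). Rbm38 rose by 2.55 and Rbfox1 by 2.12, the second at 3.18, 3.53 and 3.44 FPKM at day 7. Ptbp1, a repressor of muscle exons, had 92.2, 82.5 and 83.1 FPKM at day 7, against 207, 199 and 199 FPKM at day 0, a log2 difference of -1.22 ± 0.10 (adjusted p = 8.4e-08). The SR protein gene Srsf3 fell by 1.21, Srsf1 fell by 0.86, and Mbnl3, which restrains differentiation, fell by 1.25. In the list 5 of 24 rose, 12 fell and 7 did not pass. Among chaperones 8 of 17 rose, 4 fell and 5 did not pass, with Hspb7, a small heat shock protein of muscle, at 38.2, 49.4 and 45.5 FPKM at day 7, against 0.05, 0.09 and 0.06 FPKM at day 0, and Hsp90aa1 fell by 0.98. Of 20 genes of muscle protein turnover 18 rose, 1 fell and 1 did not pass (median 1.11). Trim63 (MuRF1), a ligase for sarcomere proteins, had 14.3, 15.1 and 14.4 FPKM at day 7, against 0.09, 0.01 and 0.15 FPKM at day 0, and Bnip3, a mitophagy receptor, had 83.2, 106 and 125 FPKM at day 7, against 11.1, 11.9 and 10.7 FPKM at day 0.

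Among long noncoding RNAs and microRNA hosts only 5 of 22 listed could be tested. H19 and Neat1 rose, the second by 1.12, and Mir17hg, host of the proliferative miR-17 cluster, fell by 0.81. The precursor of miR-133b, listed as Mir133b, had 26.4, 95.5 and 0 FPKM at day 7, against 0 FPKM in each library at day 0, which is too irregular to be read.

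Among genes of at least 5 FPKM at day 0, the 10 that fell most were 3 small nucleolar RNAs (Snora68, SNORA8 and SNORA72), Prl2c2, Prl2c3, Krt14, Car8, Itgb7, Ccl2 and Ifitm1. Prl2c2 and Prl2c3, near-identical copies that encode the growth-associated hormone proliferin, had 2.81, 3.95 and 3.88 FPKM at day 7, against 86.5, 70.2 and 82.4 FPKM at day 0, and 3.74, 4.19 and 4.56 FPKM at day 7, against 88.7, 79.5 and 92.9 FPKM at day 0. Reads shared between these copies may be split between them. Krt14, a keratin, had 0.36, 0.51 and 0.27 FPKM at day 7, against 11.8, 17.9 and 19.6 FPKM at day 0 (log2 difference -3.63 ± 0.16). The chemokine gene Ccl2 fell by 2.75 and the interferon-induced Ifitm1 fell by 2.74. Car8, a carbonic anhydrase-related gene, had 0.93, 0.96 and 1.09 FPKM at day 7, against 15.1, 13.3 and 13.9 FPKM at day 0. Snora68 was listed at 0 in all day 7 libraries, against 29.9, 25.7 and 61.2 FPKM at day 0, and such short RNAs are poorly measured in polyA libraries. SNORA8 had 0, 0 and 35.6 FPKM at day 7, against 66.2, 216 and 57.7 FPKM at day 0, and it no longer passed without the first or without the second day 7 library (-3.97 in both). SNORA72 was likewise listed at 0 in all day 7 libraries, against 22.01, 16.6 and 15.0 FPKM at day 0, and it did not pass with the later run alone.

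The course of the control cells was set against that of NFIA-expressing cells in the same fit, as the control change minus the NFIA change over the 7 days. At an adjusted p under 0.05 this difference was called in 44.7% of the 13232 genes, positive in 26.4% and negative in 18.3%, with a median of 0.08. In the NFIA-expressing cells alone 56.8% of genes differed between days, 26.0% higher and 30.8% lower. All 24 thick filament genes and 20 of 23 thin filament genes had a larger change in control cells. The level filter used the control libraries alone and so admits genes that are high in control cells at day 7, and these counts carry no independent weight. Mef2c rose by 5.83 in control cells and by 1.28 in NFIA-expressing cells, where it reached 2.56, 1.97 and 2.83 FPKM at day 7, and the difference of changes was 4.54 ± 0.20 (adjusted p = 9.0e-11). For Myf6 the difference was 3.53, for Chrne 4.27 and for Myh4 3.63. Myog rose on this scale by 6.49 in control and by 6.50 in NFIA-expressing cells (difference -0.01 ± 0.34, adjusted p = 0.99), but with a pseudocount of 0.1 the difference was -0.97 and passed as negative. The day 7 level of Myog was 453, 622 and 621 FPKM in control cells, against 104, 149 and 196 FPKM in NFIA-expressing cells. Its level at day 0 was 4.12, 5.15 and 6.66 FPKM in control cells, against 0.47, 0.57 and 0.81 FPKM in NFIA-expressing cells. Myod1 did not pass (difference 0.67, adjusted p = 0.088), but it passed as positive with the run date as a term. For Tmem8c the difference was 1.44 (adjusted p = 5.4e-04), but -0.69 with a pseudocount of 0.1. Its day 0 level in NFIA-expressing cells was 0.11, 0.09 and 0 FPKM.

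Cell cycle genes differed by step in this comparison as well. All 48 mitosis genes had a positive difference, with a median change of -0.67 in control cells and -2.23 in NFIA-expressing cells. For DNA replication 24 of 45 differences were positive, 2 negative and 19 not passed, with medians of -1.24 in control and -1.79 in NFIA-expressing cells. Ccnb2 had 58.6, 74.9 and 77.6 FPKM at day 7, against 50.3, 64.8 and 66.2 FPKM at day 0 in control cells, and 9.13, 11.0 and 13.5 FPKM at day 7, against 55.9, 68.1 and 69.8 FPKM at day 0, in NFIA-expressing cells (difference 2.65 ± 0.22, adjusted p = 1.3e-07). The difference was also positive for Ccnb1 (1.41) and Mki67 (1.88), while Ccne2 did not pass (-0.19, adjusted p = 0.45) and was negative, at -0.44, and passed with the later run alone. Ccnd1 fell by 1.96 in control cells and fell by 3.08 in NFIA-expressing cells (difference 1.12). Cdkn1a rose more in control cells (difference 1.33).

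Matrix genes took opposite courses. In control cells 29 of 41 rose, and in NFIA-expressing cells 5 rose and 29 fell, with 34 of 41 differences positive, 5 negative and 2 not passed. Col1a1 had 13.2, 12.9 and 9.94 FPKM at day 7, against 261, 233 and 218 FPKM at day 0, in NFIA-expressing cells, and the difference of changes was 6.61 ± 0.21 (adjusted p = 4.1e-12). For Postn it was 7.36, the NFIA-expressing cells having 28.9, 22.5 and 18.6 FPKM at day 7, against 498, 475 and 440.5 FPKM at day 0. Igf1 also crossed, rising in control cells and at 14.0, 17.2 and 14.7 FPKM at day 7, against 30.8, 31.6 and 30.9 FPKM at day 0, in NFIA-expressing cells (difference 4.53), and for Igf2 the difference was 2.44. Pparg, the adipocyte regulator, had 2.05, 2.37 and 2.25 FPKM at day 7, against 5.22, 4.19 and 5.88 FPKM at day 0 in control cells, a fall of 0.91, against a rise of 1.84 in NFIA-expressing cells (difference -2.75 ± 0.12, adjusted p = 1.0e-10). Of 30 histone differences 15 were negative and 0 positive, while 18.3% of all genes were negative. Of 57 in oxidative phosphorylation 8 were negative, 1 was positive and 48 did not pass, a smaller negative share than that of all genes.

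**Figure D5:**
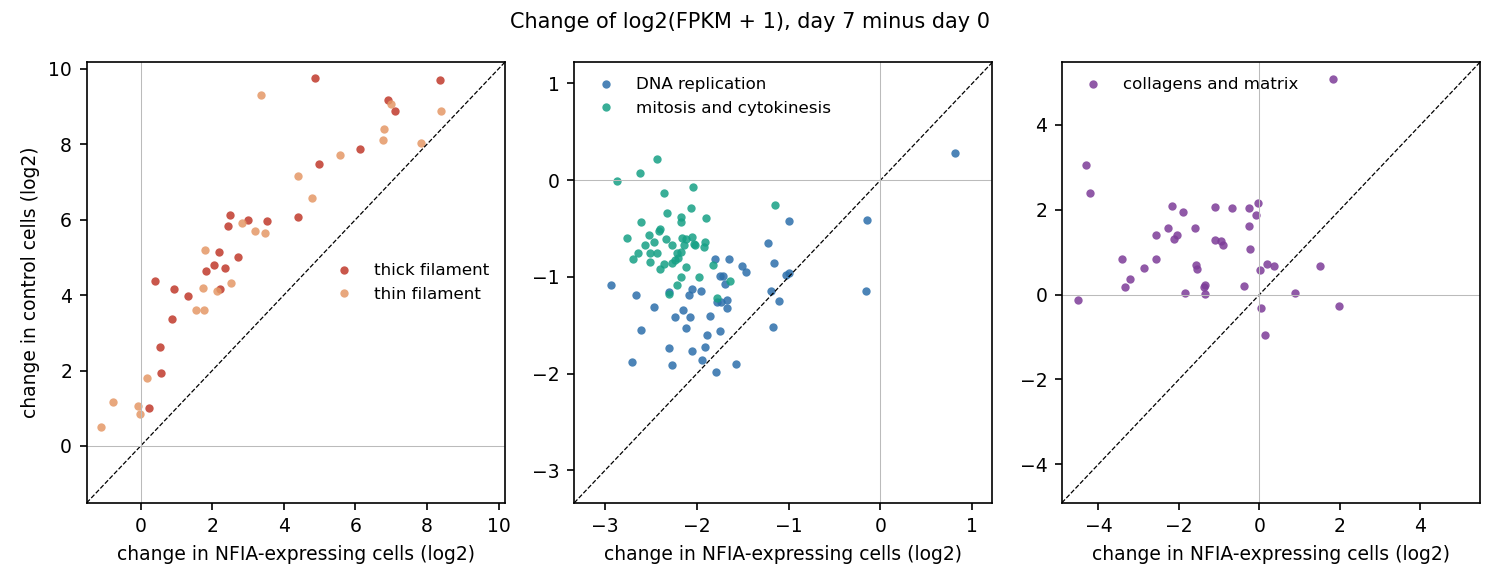
Change of log2(FPKM + 1), day 7 minus day 0, in control cells (vertical axis) against the change in NFIA-expressing cells (horizontal axis), 1 point per tested gene, for filament, cell cycle and matrix lists, with a dashed line of equal change. Filament and mitosis genes lie above the line, replication genes nearer to it, and most matrix genes in the upper left, where control cells rose and NFIA-expressing cells fell.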

How the data were processed

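RNA of C2C12 cells was measured by stranded polyA RNA sequencing, and the deposited tables hold FPKM values per gene. The authors used TopHat and Cufflinks with mm9, per the submitters' processing notes; no source used here gives their versions or the annotation. Depth per library is unknown, so no counting interval can be given. Gene values were joined by symbol over the 6 C2C12 groups (18 libraries, 3 each) and transformed to log2(FPKM + 1), which understates the change of low genes. Genes with at least 1 FPKM in at least 3 of the 6 control libraries of day 7 and day 0 were fitted with limma 3.58.1 (R 4.3.3, variance trend, 6 groups, 12 residual degrees of freedom), with Benjamini-Hochberg adjustment over 13232 genes and a threshold of 0.05. All tests were two-sided, and SE is that of the fit. The fit was tested on simulated data. All differences are day 7 minus day 0, or control change minus NFIA change.

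The gene lists, pairs, markers and motifs were chosen with earlier results of these data known. Named genes were those with known roles, up to 4 called members per list with the largest differences without overlap, up to 3 per list with the highest level, and the 10 largest differences per direction among called genes of at least 5 FPKM; exceptions are stated. Alternatives were a pseudocount of 0.1, no level filter, quantile and median-of-ratios scaling, no variance trend, the compared groups alone, a replicate block, run date as a term, numbered libraries only, a 2-fold minimum, zeros set to missing and each library left out. Figures were drawn with matplotlib 3.10.9.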

Additional observations from a re-analysis of the deposited data

Results flagged for a closer look

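The change over 7 days differed between control and NFIA-expressing cells for 18 of 21 genes followed, by the interaction term of the limma fit. Of all 13232 genes tested, 44.7% were called by this term. Each of the 18 differences is given here as control change minus NFIA change on the log2(FPKM + 1) scale. Regulators and fusion genes gave 4.54 for Mef2c, 3.53 for Myf6, 2.74 for Gm7325 and 1.44 for Tmem8c. With a pseudocount of 0.1 Gm7325 was at 0.77 and no longer passed, and Tmem8c was at -0.69. Contractile and junction genes gave 1.76 for Myh3, 2.49 for Myh1, 3.63 for Myh4 and 4.27 for Chrne. With a pseudocount of 0.1 Myh3 was at 0.47 and no longer passed. Cell cycle genes gave 2.65 for Ccnb2, 1.41 for Ccnb1, 1.88 for Mki67, 1.33 for Cdkn1a and 1.12 for Ccnd1. Matrix and growth factor genes gave 6.61 for Col1a1, 7.36 for Postn, 4.53 for Igf1 and 2.44 for Igf2. Pparg gave -2.75. The genes were chosen with results of these data known, so the count of 18 of 21 is no result about them as a set.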

How the results depend on the processing

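The day comparison called 6769 genes, and 5931 to 6568 with 1 library left out (2905 to 3479 higher, 3012 to 3332 lower). The comparison of changes called 5424 to 6041 genes with 1 library left out (3196 to 3500 positive, 2179 to 2565 negative). A 2-fold minimum left 1796 genes in the day comparison (1282 higher, 514 lower) and 2716 in the comparison of changes (1881 positive, 835 negative). No other alternative moved these totals by over 1.5 times. The day comparison called 5475 genes with the compared groups alone, 8062 without the level filter, 8319 with the numbered libraries and 8916 with run date as a term. Quantile normalization moved the median of all genes to -0.10, and 40.4% of its 7265 calls were higher (2934 higher, 4331 lower), against 50.3% without it. The labels number only 2 libraries per group, so numbers were not used as pairs in the main fit. Deviations of same-numbered libraries of day 7 and day 0 correlated at 0.51, 0.24 and 0.28. Number 2 correlated with number 3 at 0.24 and 0.19. Number 1, which has the earlier date on both days, correlated at -0.44 to -0.30 with numbers 2 and 3 of the other day. With a replicate block the totals were 8854 and 8020. Of 131 named genes 28 lost or gained the call under some alternative, and of 21 in the comparison of changes 5 did. Of 884 list counts 70 moved by over 1.5 times. The sign of 1 called value changed, that of Tmem8c (-0.69 with a pseudocount of 0.1 in the comparison of changes). The other changes of sign were in values that did not pass. After quantile normalization Atp5b was at -0.51, Cenpa at -0.069 and the Myog difference of changes at 0.15, and with the numbered libraries Pttg1 was at 0.0125. With 1 library left out Atp5b ranged between -0.0040 and 0.16, Cenpa between -0.13 and 0.24, Pttg1 between -0.16 and 0.17, Cdca3 between -0.38 and 0.0215, Cks2 between -0.27 and 0.19 and the Myog difference between -0.25 and 0.21. The cause was not tested. Unknown read depth limits what can be said of genes near 0 FPKM.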
